A study of Mus musculus with 27 samples.

Results

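Ms4a4a, Ms4a6b, Ms4a6c, Ms4a6d and Ms4a7 are 5 genes of the Ms4a family, the membrane-spanning 4-domains subfamily A, whose transcripts are found in macrophages. They were picked by name, as the rows of the deposited gene table with these symbols, and all 5 were present and passed the filter on low values, out of 54532 genes in the table. The choice was made by someone who knew earlier results of these same libraries, so the levels given here describe the genes, and a test on them is not independent support for the choice.

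The study converted mouse embryonic fibroblasts towards neurons and asked whether the clock genes Per1 and Per2 affect the conversion. RNA was sequenced from WT, Per1-/- and Per2-/- cultures on days 0, 2 and 4, with 3 libraries in each of the 9 groups and 27 libraries in all. Fibroblasts came from embryos at day 13.5 without head and heart, with 4 embryos pooled in a dish and their sex not determined, and were used at passage 1. Every group, WT included, carried lentiviruses for neuronal transcription factors and for the transactivator M2rtTA, added 3 days before day 0. From day 0 doxycycline switched the factors on, and the serum medium was exchanged at the same time for a serum-free medium with insulin, transferrin and selenium, so the day 0 libraries hold infected fibroblasts in serum before conversion. The mice were of B6.129 lines. The libraries are labelled induced neurons, yet they are mixed cultures: the summed level of 10 fibroblast markers lay between 2353 and 5902 FPKM in every library, against 41.9 to 208 FPKM for 8 neuron markers.

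Levels are in FPKM, fragment counts divided by gene length and by a library size, so that levels of different genes can be compared per length. The library size behind the deposited values was not the plain total of assigned fragments. It was 0.865 to 0.925 times that total in the day 0 libraries and 1.03 to 1.10 times in those of days 2 and 4. Each library held between 15815013 and 24264097 assigned fragments. The clock gene transcripts were read first as a check of the labels. On day 0 Per1 had a median of 5.58 FPKM in WT and 4.15 FPKM in Per1-/- libraries. The medians were 4.81 and 4.49 FPKM on day 2 and 4.95 and 4.54 FPKM on day 4, so most of the Per1 level remained. Per2 had a median of 0.906 FPKM in WT and 1.90 FPKM in the libraries labelled Per2-/-, and every Per2-labelled library was above every WT library on each day. A whole-gene level does not show which exons were read, and a deleted gene can still be transcribed in part. Such a level therefore settles neither the Per1 nor the Per2 label. The study's own check was made on the proteins, by western blotting, which was not analysed here. Because the transcript level runs against the Per2 label, these cultures are called the libraries labelled Per2-/-. A pair of day 0 libraries stood apart in macrophage transcripts: Per1-/- replicate 3 was the highest of the 9 day 0 libraries and replicate 2 labelled Per2-/- the lowest, with mean log2 marker levels of 4.17 and 1.42 against 2.01 to 3.28 in the other 7.

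MS4A proteins cross the cell membrane several times, with both ends inside the cell, and act in complexes with receptors rather than as enzymes. The best known relatives are Ms4a1, which encodes CD20 of B cells, and Ms4a2, the beta chain of the high-affinity IgE receptor of mast cells. Among the 5 genes, Ms4a4a encodes a surface protein of macrophages that associates with the beta-glucan receptor Dectin-1, the product of Clec7a. Ms4a7 is used as a macrophage marker, Ms4a6c is abundant in monocytes, and Ms4a6b is also known from T cells. Macrophages live in embryonic tissue and are carried into fibroblast cultures.

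The 5 genes lie in the Ms4a cluster on chromosome 19 (GRCm38), which holds 19 family genes within 678.6 kb. Ms4a7 (ENSMUSG00000024672, minus strand) spans chr19:11321039-11336146. Ms4a4a (ENSMUSG00000101389, plus strand) spans chr19:11375523-11392790. Ms4a6c (ENSMUSG00000079419, plus strand) spans chr19:11469366-11482192 and Ms4a6b (ENSMUSG00000024677, plus strand) chr19:11516512-11531256. Ms4a6d (ENSMUSG00000024679, minus strand) spans chr19:11586604-11604849. All 5 are protein coding, and the stretch from Ms4a7 to Ms4a6d, 283.8 kb long, also holds the family genes Ms4a4c, Ms4a4b and Ms4a4d.

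The sequences just before these genes show how close a pair of neighbours is. RefSeq promoter windows of build GRCm38.p6, running from 250 bases before a transcription start to 50 bases after it, were found for 4 of the 5 genes, with a pair of windows for Ms4a7 and none for Ms4a6d. The windows of Ms4a6b (chr19:11518309-11518608, plus strand) and Ms4a6c (chr19:11469118-11469417, plus strand) are printed 5′ to 3′ with the 48 bases that are identical in both in capitals. The Ms4a6b start used by RefSeq lies inside the span of the gene given above.
Ms4a6b: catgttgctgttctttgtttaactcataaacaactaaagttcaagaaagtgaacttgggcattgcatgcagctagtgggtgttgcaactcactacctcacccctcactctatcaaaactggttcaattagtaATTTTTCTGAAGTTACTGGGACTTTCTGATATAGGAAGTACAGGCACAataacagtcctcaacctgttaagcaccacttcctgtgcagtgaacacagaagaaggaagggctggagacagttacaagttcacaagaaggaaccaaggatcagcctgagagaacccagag
Ms4a6c: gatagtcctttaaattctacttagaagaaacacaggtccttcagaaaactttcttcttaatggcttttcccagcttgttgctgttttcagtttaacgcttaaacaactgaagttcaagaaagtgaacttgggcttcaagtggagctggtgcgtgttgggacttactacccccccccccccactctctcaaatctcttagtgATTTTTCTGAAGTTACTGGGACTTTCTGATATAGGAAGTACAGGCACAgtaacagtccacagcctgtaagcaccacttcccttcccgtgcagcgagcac
The capitals begin at position -118 from the start of Ms4a6b and at position -49 from the start of Ms4a6c, and in a local alignment these windows shared 182 of 222 columns (82.0%). The 48-base run was found in 2 of the 32851 windows of all genes, those of this pair. It holds AGGAAGT, a letter run of the kind bound by ETS factors such as PU.1, the product of Spi1. That motif was chosen after the sequences were seen, was found on either strand in 2 of the 5 windows of these genes, and is held by 9.35% of all windows.

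The windows of Ms4a4a (chr19:11375238-11375537, plus strand) and Ms4a7 (chr19:11336097-11336396, minus strand) are shown for contrast. They hold no part of the 48-base run, so nothing is in capitals.
Ms4a4a: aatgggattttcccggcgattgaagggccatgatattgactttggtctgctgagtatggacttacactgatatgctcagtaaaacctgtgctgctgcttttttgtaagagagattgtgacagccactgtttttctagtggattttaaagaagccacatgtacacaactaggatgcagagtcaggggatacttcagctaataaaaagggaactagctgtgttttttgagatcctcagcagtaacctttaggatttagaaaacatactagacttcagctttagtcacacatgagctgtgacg
Ms4a7: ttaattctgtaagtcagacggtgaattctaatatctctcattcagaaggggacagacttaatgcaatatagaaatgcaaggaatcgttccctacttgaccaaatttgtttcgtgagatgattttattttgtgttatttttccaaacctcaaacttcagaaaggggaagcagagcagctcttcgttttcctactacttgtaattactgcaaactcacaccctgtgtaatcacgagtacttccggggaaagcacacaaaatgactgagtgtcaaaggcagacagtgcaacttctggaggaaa
The best local alignment of these windows covered 20 columns, of which 15 were identical. Across the 5 windows, searched on both strands, the C/EBP-type motif TTNCNNAA was present in 5, against 40.7% of all windows, and the AP-1 motif TGANTCA in 1, against 7.81%. The shorter ETS run GAGGAA was in 1 window (28.3% of all). The E-box CACGTG, to which clock factors bind, was in 0 of the 5 windows (7.15% of all), as were GAGGAAGT (3.20%), the interferon-stimulated response element (3.44%) and the MAF-type motif TGCTGAC (4.67%). GAGGAA lies within GAGGAAGT, and AGGAAGT overlaps it. A match is a run of letters, not a measured site.

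Near-identical sequence also bears on how reads can be assigned. Of the 50-base words in its transcripts, Ms4a6c shares 10.5% with other genes, of which 117 words are in Ms4a6b and 66 in Prdm11. The share was 3.57% for Ms4a6b, 2.54% for Ms4a6d, 0.306% for Ms4a7 and 0% for Ms4a4a, so a small part of the Ms4a6c and Ms4a6b reads may be uncertain. The libraries were not strand specific. Ms4a6b overlaps the antisense gene Gm19261, which had a mean of 0.00664 FPKM, and Ms4a6c overlaps BE692007, with a mean of 0.352 FPKM.

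Apart from the 5 genes, 2 genes of the cluster passed the filter. Of the 14 other family genes, 12 were under the filter, with means over the 27 libraries from 0 to 0.227 FPKM, and Ms4a12 and Ms4a13 had no fragment in any library. Ms4a1, the B cell gene, had 8 fragments over all libraries. The 5 genes had means of 9.26 FPKM for Ms4a6d, 4.79 for Ms4a7, 4.26 for Ms4a4a, 3.45 for Ms4a6c and 2.23 for Ms4a6b. The other family genes that passed the filter were Ms4a4d, whose mean of 3.02 FPKM was above that of Ms4a6b, and Ms4a14, with 0.748 FPKM.

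**Figure D1:**
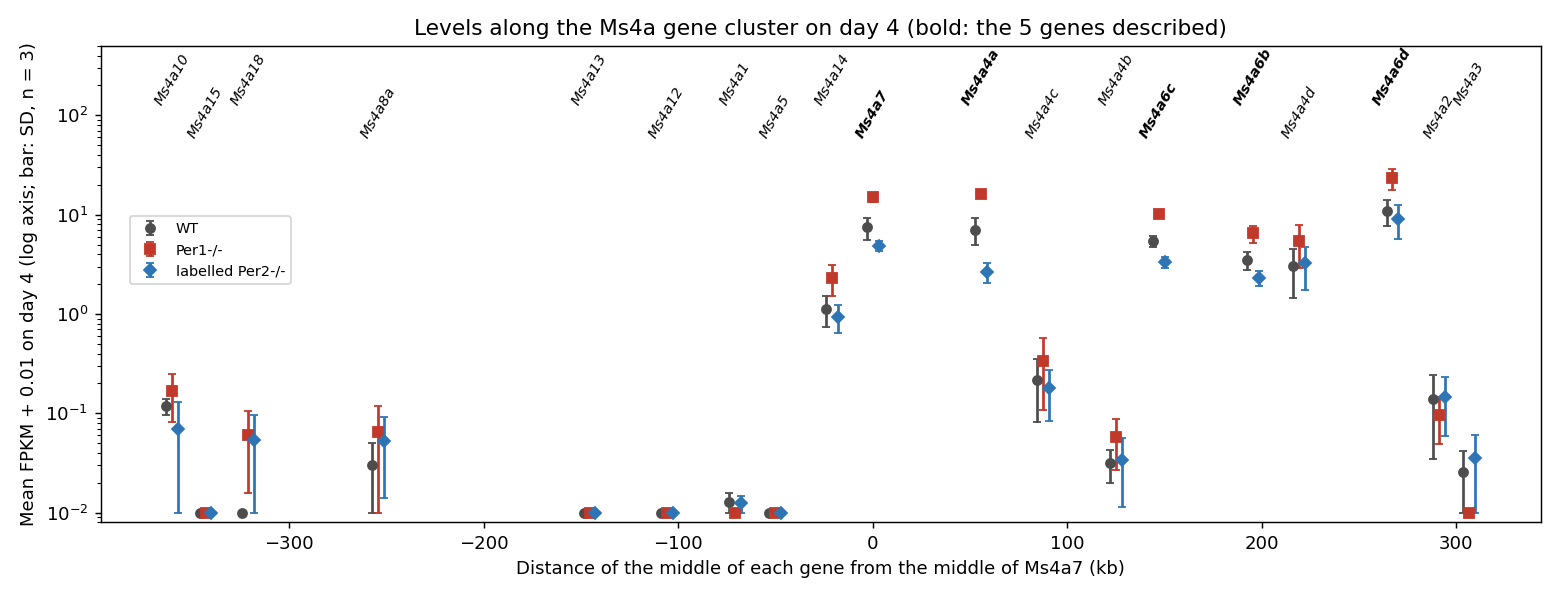
Mean FPKM + 0.01 on day 4 (log axis) of the 19 Ms4a family genes by distance of their middles from the middle of Ms4a7 in kilobases, in WT, Per1-/- and the libraries labelled Per2-/-. Bars are SD over 3 libraries, drawn down to a mean of 0 at most. The 5 genes in bold have mean levels between 2.31 and 23.2 FPKM, and most other family genes lie far below them.

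Ms4a6d was the most abundant of the 5 genes in 27 of 27 libraries. In WT it had 2.95, 3.48 and 5.42 FPKM at day 0, 5.20, 6.65 and 8.04 at day 2 and then 8.39, 9.84 and 14.6 at day 4. In Per1-/- it had 2.65, 3.93 and 11.8 FPKM at day 0, 10.7, 13.5 and 18.3 at day 2 and then 17.4, 24.5 and 27.8 at day 4. The libraries labelled Per2-/- had 1.90, 5.29 and 7.33 FPKM at day 0, 3.25, 4.75 and 5.21 at day 2 and then 6.13, 8.33 and 12.7 at day 4. The genotypes overlapped at day 0, where 1 of the 3 Per1-/- libraries was far above the other two. From day 2 on, the 3 Per1-/- libraries were above all others of their day, while WT and Per2-labelled libraries overlapped.

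Ms4a7 was next in level on day 0. WT libraries had 0.907, 0.966 and 1.97 FPKM at day 0, 2.44, 2.52 and 3.55 at day 2 and then 5.94, 6.89 and 9.48 at day 4. Per1-/- libraries had 0.859, 1.17 and 4.06 FPKM at day 0, 4.84, 5.05 and 6.99 at day 2 and then 14.2, 14.2 and 16.9 at day 4. In the libraries labelled Per2-/- the values were 0.50, 2.16 and 2.45 at day 0, 1.62, 2.30 and 2.97 at day 2 and then 4.38, 4.67 and 5.47 at day 4. On day 4 the genotypes did not overlap, with Per1-/- above WT and WT above the Per2-labelled libraries.

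Ms4a4a went from near the limit of detection to the level of Ms4a7 in WT and Per1-/-, but not in the libraries labelled Per2-/-. Its day 0 libraries held only 0 to 16 fragments, which gave 0.0578, 0.179 and 0.503 FPKM in WT, 0.155, 0.185 and 1.30 in Per1-/- and 0, 0.679 and 0.764 in the libraries labelled Per2-/-. The library at 0 fragments allows up to 0.190 FPKM, the value of 3 fragments, as a limit for counting error only. On day 2 WT libraries had 2.08, 2.35 and 4.06 FPKM, Per1-/- libraries 6.38, 6.57 and 6.88, and Per2-labelled libraries 1.04, 2.24 and 2.27. On day 4 the values were 5.25, 6.45 and 9.44 in WT, 15.5, 15.9 and 16.8 in Per1-/-, and 2.08, 2.58 and 3.25 in the Per2-labelled libraries. Genotypes were mixed on day 0 and fully apart on day 4, in the same order as for Ms4a7.

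Ms4a6c had 0.377, 0.438 and 1.31 FPKM in WT at day 0, 2.09, 2.43 and 3.11 at day 2 and then 4.84, 5.33 and 6.20 at day 4. Per1-/- libraries had 0.126, 0.665 and 2.11 FPKM at day 0, 4.09, 4.79 and 6.26 at day 2 and then 9.47, 10.1 and 11.1 at day 4. The Per2-labelled libraries had 0.233, 0.708 and 1.22 FPKM at day 0, 1.93, 2.07 and 2.39 at day 2 and then 2.88, 3.28 and 3.74 at day 4. The Per1-/- libraries were again mixed with the others on day 0 and above all of them from day 2.

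Ms4a6b, the close relative of Ms4a6c, had the lowest group means of the 5 from day 2 on. It had 0.0647, 0.200 and 0.480 FPKM in WT at day 0, 1.64, 1.71 and 2.19 at day 2 and then 2.89, 3.32 and 4.25 at day 4. Per1-/- libraries had 0.207, 0.463 and 1.10 FPKM, then 2.82, 3.08 and 4.19, then 5.67, 5.80 and 7.93 on the same days. Per2-labelled libraries had 0.118, 0.311 and 0.519 FPKM, then 1.02, 1.60 and 1.63, then 2.02, 2.14 and 2.77. This was the only one of the 5 genes whose WT libraries were above all Per2-labelled ones on day 2 as well as at day 4.

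**Figure D2:**
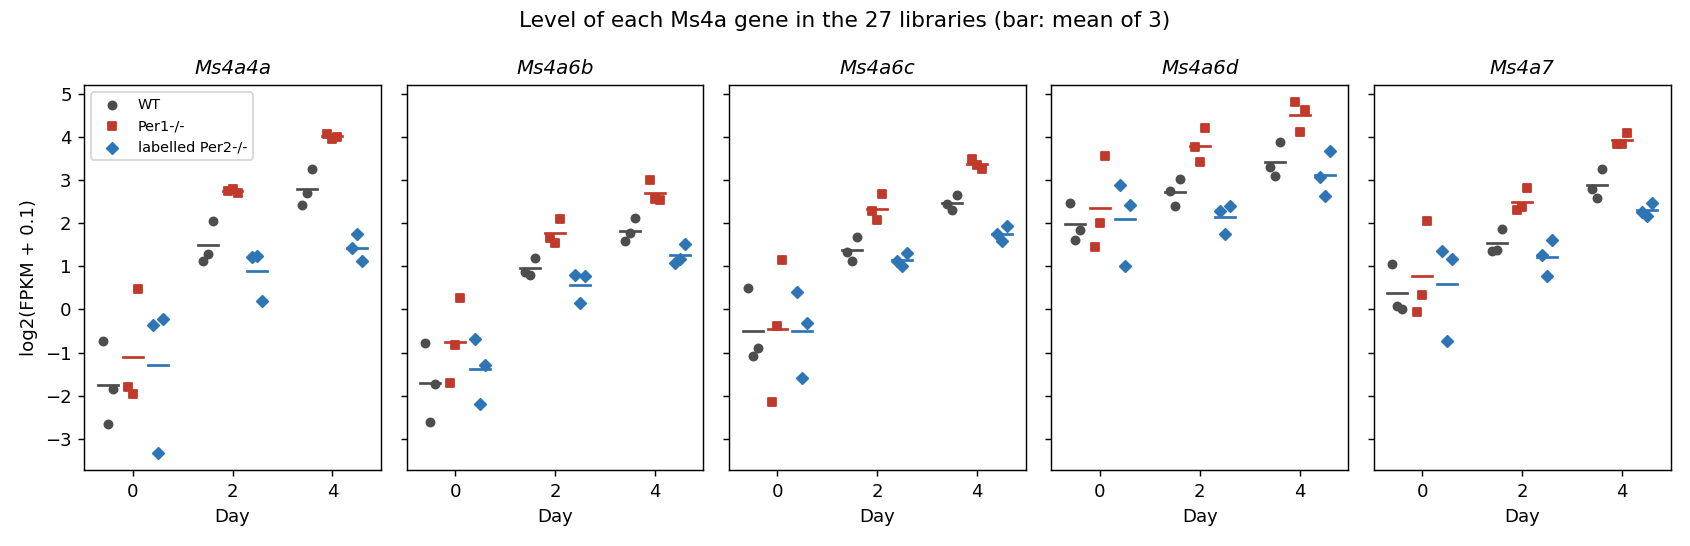
Level of each gene as log2(FPKM + 0.1) in the 27 libraries by day, with 1 point per library and a bar at the mean of 3. All 5 genes are higher on day 4 than on day 0 by group mean, and the Per1-/- points lie above the others on days 2 and 4 but not on day 0.

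The order of the genes within a library changed with the day. Ms4a6d was above Ms4a7 in 27 of 27 libraries, and Ms4a7 was above Ms4a6b in 27 of 27. Ms4a4a was below Ms4a7 in 9 of 9 libraries on day 0, but above it in 4 of 9 on day 2 and in 3 of 9 on day 4. These neighbours were thus not separated over all genotypes later on. In the libraries labelled Per2-/- on day 4 they were, with 2.08 to 3.25 FPKM for Ms4a4a and 4.38 to 5.47 for Ms4a7. Against Ms4a6c, Ms4a4a was higher in 2 of 9 libraries on day 0, in 7 of 9 on day 2 and in 6 of 9 on day 4. Ms4a6c was above its relative Ms4a6b in 26 of 27 libraries.

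Across the 9 groups, the highest mean of each of the 5 genes was in Per1-/- on day 4. It was 23.2 ± 5.33 FPKM for Ms4a6d (SD, n = 3), 16.1 ± 0.682 for Ms4a4a, 15.1 ± 1.57 for Ms4a7, 10.2 ± 0.822 for Ms4a6c and 6.47 ± 1.27 for Ms4a6b. WT on day 4 came next for 4 of the 5 genes, with 7.05 ± 2.16 FPKM for Ms4a4a, 7.44 ± 1.83 for Ms4a7, 5.46 ± 0.685 for Ms4a6c and 3.49 ± 0.698 for Ms4a6b. For those 4 genes the groups ranked first and second did not overlap. Of all tested genes 7.98% had every Per1-/- library above every WT library on day 4. For Ms4a6d the group ranked second was Per1-/- on day 2, at 14.2 ± 3.83 FPKM, which overlapped both Per1-/- and WT (10.9 ± 3.24) on day 4. The 3 day 0 groups overlapped each other for all 5 genes.

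The first question the time course allows is how the genes changed after day 0. The neuronal factors and the medium changed together then, in every culture, so the parts of each and of time in culture cannot be told apart. Changes are given as log2 fold changes of FPKM + 0.1 from limma, fitted over all 14932 genes that passed the filter and all 27 libraries, with Benjamini-Hochberg adjustment over those genes. A gene was called when the adjusted p was at most 0.05 and the change at least 0.58 in size, the limits the study used.

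All 5 genes rose in WT between day 0 and day 4. The rise was 4.54 for Ms4a4a (SE 0.664, limma adjusted p = 5.3e-06), 3.53 for Ms4a6b (SE 0.435, adjusted p = 5.61e-07), 2.96 for Ms4a6c (SE 0.555, adjusted p = 9.82e-05) and 2.50 for Ms4a7 (SE 0.473, adjusted p = 0.000107). Ms4a6d, the most abundant gene, had the smallest rise, 1.45 (SE 0.462, adjusted p = 0.00934). Over all tested genes 22.9% were called higher in this comparison, so the calls alone do not set these genes apart. The median change of all genes was -0.02.

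In Per1-/- cultures all 5 genes also rose from day 0 to day 4, by 5.11 for Ms4a4a, 3.83 for Ms4a6c, 3.45 for Ms4a6b, 3.14 for Ms4a7 and 2.17 for Ms4a6d, with limma adjusted p from 8.15e-07 to 0.00036 (22.6% of all genes called higher). In the libraries labelled Per2-/- 4 of 5 rose, by 2.73 for Ms4a4a, 2.65 for Ms4a6b, 2.26 for Ms4a6c and 1.70 for Ms4a7 (21.6% of all genes). Ms4a6d had 1.02 there (SE 0.462, adjusted p = 0.061), and passed the test when FPKM was rescaled to a common sum (1.27, adjusted p = 0.0244). With that rescaling the median change of all genes was 0.25 to 0.37 in these comparisons, against -0.02 to 0.00 as deposited, and the WT calls went from 3414 higher and 3120 lower to 5484 higher and 1510 lower. The changes of the 5 genes exceed that shift, but for Ms4a6d in the Per2-labelled libraries the shift is a sizeable part of the change.

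For Ms4a4a, Ms4a6b and Ms4a6c most of the rise on the log2 scale had taken place by day 2. In WT 4 of 5 genes rose between days 0 and 2, by 3.24 for Ms4a4a, 2.66 for Ms4a6b, 1.87 for Ms4a6c and 1.15 for Ms4a7 (20.8% of all genes called higher). The call of Ms4a7 (adjusted p = 0.0411) was lost in 5 of the 6 fits that left out 1 library, with an adjusted p of up to 0.133, and without the filter on low values (0.0864). Ms4a6d had 0.76 (adjusted p = 0.163). In Per1-/- all 5 rose, by 1.45 to 3.84 (20.8% of all genes), though Ms4a6d was not called without Per1-/- day 0 replicate 1 (1.01, adjusted p = 0.0757). In the libraries labelled Per2-/- 3 of 5 rose, Ms4a4a by 2.18, Ms4a6b by 1.96 and Ms4a6c by 1.65 (18.7% of all genes), while Ms4a7 had 0.63 and Ms4a6d 0.04. That count rested on day 0 replicate 2 of the Per2-labelled libraries, which was low for all 5 genes: without it only Ms4a6b was called.

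Between days 2 and 4 the changes were positive for all 5 genes in each genotype, from 0.54 to 1.42, and none was called by limma in any genotype (1.62% of all genes called higher in WT, 1.38% in Per1-/- and 2.32% in the Per2-labelled libraries). At an unadjusted p under 0.05 there was 1 such gene in WT, 2 in Per1-/- and 2 in the libraries labelled Per2-/-. In WT every day 4 library was above every day 2 library for 5 of 5 genes, against 14.7% of all genes, and in Per1-/- for 4 of 5 (14.1%). With the replicate number as a block within genotype, Ms4a7 was called in WT (1.35, adjusted p = 0.0367) and in Per1-/- (1.42, adjusted p = 0.0315). With voom on the recovered fragments 1 gene was called in WT and 4 in Per1-/-.

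The main question of the study is whether the genotypes differ. On day 4 the Per1-/- means were 2.28 times the WT mean for Ms4a4a, 2.12 times for Ms4a6d, 2.03 times for Ms4a7, 1.87 times for Ms4a6c and 1.86 times for Ms4a6b. In the limma fit the differences were 1.22 for Ms4a4a (SE 0.664), 1.09 for Ms4a6d (SE 0.462), 1.03 for Ms4a7 (SE 0.473), 0.90 for Ms4a6c (SE 0.555) and 0.87 for Ms4a6b (SE 0.435). None of the 5 passed, with adjusted p from 0.727 to 0.917, and 2 of 5 had an unadjusted p under 0.05. With voom on the recovered fragments none passed either, with adjusted p from 0.169 to 0.266. In that comparison 0.0201% of all tested genes were called higher by limma.

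On day 2 the Per1-/- libraries differed from WT by 1.25 for Ms4a4a (SE 0.664), 1.07 for Ms4a6d (SE 0.462), 0.96 for Ms4a6c (SE 0.555) and Ms4a7 (SE 0.473) and 0.82 for Ms4a6b (SE 0.435). None was called (limma adjusted p = 0.999 for each, and none by voom), with 1 of 5 under an unadjusted p of 0.05, and 0.0067% of all genes were called higher. Without a test, the separation can be stated from the values: the 3 Per1-/- libraries were above the 6 others for 5 of 5 genes on day 2, where 3.07% of all tested genes showed this, and for 5 of 5 on day 4 (4.92% of all genes). On day 0 they were above the others for 0 of 5 (0.643%). The genes move together across libraries, so the 5 are not 5 separate observations.

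On day 0 the Per1-/- differences from WT were 0.03 for Ms4a6c, 0.37 for Ms4a6d, 0.39 for Ms4a7, 0.65 for Ms4a4a and 0.95 for Ms4a6b, none called by limma or voom, with 1 of 5 under an unadjusted p of 0.05 (0.0134% of all genes called higher). Per1-/- day 0 replicate 3 was the highest of the 3 for each gene. When 1 library was left out, the difference turned sign for 4 of the 5 genes, running from -0.78 to 0.87 for Ms4a6c, -0.24 to 0.82 for Ms4a6d, -0.24 to 0.81 for Ms4a7 and -0.14 to 1.15 for Ms4a4a, and from 0.44 to 1.43 for Ms4a6b. The change from day 0 to day 4 did not pass the test of a difference between Per1-/- and WT for any of the 5 genes, with estimates from -0.08 to 0.87 and unadjusted p from 0.28 to 0.899. For the change from day 0 to day 2 the estimates ran from -0.13 to 0.93, with unadjusted p from 0.25 to 0.832. In both tests 0 of the 5 genes had an unadjusted p under 0.05, voom called none, and 0 of 14932 genes were called.

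The largest gaps were between Per1-/- and the libraries labelled Per2-/-. On day 4 they were 2.58 for Ms4a4a (SE 0.664, limma adjusted p = 0.0724), 1.62 for Ms4a7 (SE 0.473, adjusted p = 0.119), 1.61 for Ms4a6c (SE 0.555, adjusted p = 0.194), 1.44 for Ms4a6b (SE 0.435, adjusted p = 0.133) and 1.39 for Ms4a6d (SE 0.462, adjusted p = 0.175). None passed, though 5 of 5 had an unadjusted p under 0.05, and 0.442% of all genes were called higher. This outcome depended on the fit: voom called 5 of the 5 genes, with adjusted p from 0.00113 to 0.0231, and a pseudocount of 1 or a fit on the 2 groups alone called 4. On day 2 the gaps were 1.19 to 1.86 (adjusted p from 0.218 to 0.587, 5 of 5 with an unadjusted p under 0.05, none called by voom, 0.0603% of all genes called higher).

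The libraries labelled Per2-/- were below WT on day 4 by estimate for all 5 genes, with log2 differences of -1.37 for Ms4a4a (SE 0.664), -0.71 for Ms4a6c, -0.59 for Ms4a7, -0.57 for Ms4a6b and -0.30 for Ms4a6d. None was called by limma or voom, 0 of 5 had an unadjusted p under 0.05, and 0.0067% of all genes were called lower. WT libraries were all above the Per2-labelled ones for 4 of 5 genes on day 4 (6.13% of all genes), Ms4a6d being the exception, and for 1 of 5 on day 2 (5.69%). These comparisons share the WT and Per1-/- libraries with those above, and they carry the doubt about the Per2 label.

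**Figure D3:**
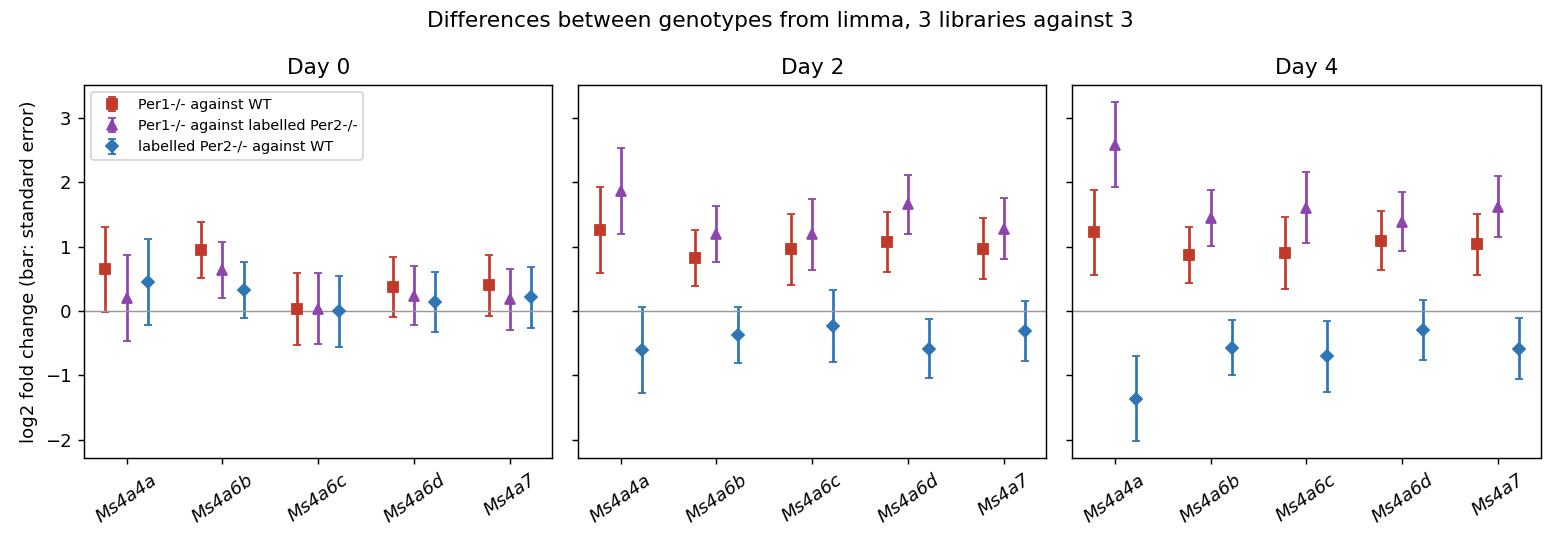
Log2 fold change between genotypes for each gene on days 0, 2 and 4 from the limma fit, 3 libraries against 3, with bars of 1 standard error. Per1-/- is above WT and above the libraries labelled Per2-/- on days 2 and 4 by 0.82 to 2.58, and no point passes the adjusted threshold.

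The question that follows is how far these differences are those of macrophage transcripts in general. In bulk RNA, more macrophages and more RNA per macrophage cannot be told apart. A list of 30 macrophage markers was used, of which 29 passed the filter and only Cd163 did not. Their summed level was 848 to 1394 FPKM in WT on day 4, 1598 to 2734 in Per1-/- and 647 to 1053 in the libraries labelled Per2-/-. At day 0 the ranges were 394 to 721, 378 to 1520 and 283 to 808 FPKM, and no marker was at 0 in a whole group other than 1 in Per1-/- on day 0. The marker median for Per1-/- against WT was 0.94 on day 2 and 0.86 on day 4, with 29 of 29 positive and none called on either day, beside medians of 0.96 and 1.03 for the 5 genes and -0.01 for all genes.

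Defining macrophage genes had the same order of genotype medians on day 4. Adgre1, which encodes F4/80, had medians of 20.7 FPKM in WT on day 4, 42.9 in Per1-/- and 14.5 in the libraries labelled Per2-/-. Csf1r, the receptor for macrophage colony-stimulating factor, had 33.6, 72.5 and 22.5 FPKM, and Itgam, encoding CD11b, had 1.82, 3.48 and 1.54. For each of these genes the 3 Per1-/- libraries on day 4 were above the WT libraries, as for 7.98% of all tested genes. WT and Per2-labelled libraries overlapped for Adgre1 and Itgam.

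Markers of other cells in which Ms4a genes are known were low. The summed level of 6 markers stayed at or below 1.15 FPKM for B cells, 2.71 for T cells, 0.557 for mast cells, 2.06 for neutrophils and 2.23 for dendritic cells in every library. In WT on day 0 the sums were 0.0713 to 0.327 FPKM for B cells and 0.543 to 2.71 for T cells. They were 0.00542 to 0.0885 for mast cells, 0 to 1.18 for neutrophils and 0.458 to 0.735 for dendritic cells. In those libraries Ms4a4a had 0.0578 to 0.503 FPKM and Ms4a6b 0.0647 to 0.480, so not all sums were below these genes. The part of other cells in the day 0 values was not tested. None of the B cell, T cell, mast cell or neutrophil markers passed the filter, and the mast cell tryptase gene Tpsb2 was at 0 in all 27 libraries. Fibroblast markers had overlapping ranges in WT (4321 to 5902 FPKM) and Per1-/- (4721 to 5297) on day 4.

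When the mean log2 level of the macrophage markers was added to the limma fit as a covariate, the differences between Per1-/- and WT were smaller, by an amount that depended on the pseudocount. With 0.1, on day 4 they were 0.13 for Ms4a4a (SE 0.447), 0.10 for Ms4a6b (SE 0.243), -0.13 for Ms4a6c (SE 0.270), 0.18 for Ms4a6d (SE 0.139) and 0.11 for Ms4a7 (SE 0.161). On day 2 they lay between -0.07 for Ms4a6c and 0.16 for Ms4a4a. None was called by limma or by voom on either day, and with this pseudocount none had an unadjusted p under 0.05, with 0.0067% of all genes called higher on day 2 and 0.0134% on day 4. With a pseudocount of 1 the day 4 values were 0.73 for Ms4a4a (SE 0.240), 0.38 for Ms4a6b (SE 0.126) and 0.28 for Ms4a7 (SE 0.129), and the day 2 values 0.65 for Ms4a4a and 0.26 for Ms4a6b. These had an unadjusted p under 0.05, and none was called (limma adjusted p from 0.702 to 1). With 0.01 the values of Ms4a4a were negative, -0.54 on day 4 and -0.50 on day 2. On day 0, with 0.1, the values ran from -0.57 for Ms4a6c to 0.51 for Ms4a6b, none called by limma or voom, with 2 of 5 under an unadjusted p of 0.05 (0.0134% of all genes called higher). Adjustment on a level measured in the same libraries describes the values at equal marker level and does not show what set that level.

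Over time, 4 of the 5 genes rose between day 0 and day 4 at equal macrophage markers, in each genotype. The markers did not all move alike over these days. In WT 19 of 29 were called higher, in Per1-/- 24 and in the Per2-labelled libraries 12 (22.9%, 22.6% and 21.6% of all genes). Called lower were 1, 0 and 1 (20.9%, 20.4% and 18.8% of all genes), and 26, 27 and 22 were positive. The list medians were 1.67, 2.16 and 1.02, so values at equal markers depend on the markers chosen. In WT the rise at equal markers was 2.68 for Ms4a4a (SE 0.513, limma adjusted p = 0.000172), 2.21 for Ms4a6b (SE 0.280, adjusted p = 1.43e-06), 1.21 for Ms4a6c (SE 0.310, adjusted p = 0.00245) and 0.92 for Ms4a7 (SE 0.185, adjusted p = 0.000271). Ms4a6d had -0.10 (SE 0.159, adjusted p = 0.601). In Per1-/- the values were 2.79, 1.81, 1.64 and 1.17 for the same 4 genes, and 0.23 for Ms4a6d (adjusted p = 0.279). In the libraries labelled Per2-/- they were 1.66, 1.89, 1.25 and 0.80, and 0.13 for Ms4a6d (adjusted p = 0.431).

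Many genes changed over these days, and 22.8%, 21.7% and 22.0% of all genes were called higher at equal markers in WT, Per1-/- and the Per2-labelled libraries. With only Adgre1, Itgam and Csf1r as the covariate, Ms4a4a (2.20) and Ms4a6b (1.91) were still called in WT, while Ms4a6c (0.80, adjusted p = 0.0722) and Ms4a7 (0.56, adjusted p = 0.0558) were not. With that covariate 4 genes were called in Per1-/-, and 3 in the Per2-labelled libraries, where Ms4a7 had an adjusted p of 0.0745. The rise of Ms4a4a and Ms4a6b at equal markers was thus called with both covariates in the 3 genotypes, but with a pseudocount of 0.01 Ms4a4a was not called in Per1-/- (1.74, adjusted p = 0.11).

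The same can be read in each library as the log2 level of a gene minus the mean log2 level of the markers, given here as a description. For Ms4a4a the mean over the 9 libraries of a day was -4.02 on day 0, -1.54 on day 2 and -1.36 on day 4. For Ms4a6b it was -3.92, -2.15 and -2.18, and for Ms4a6c -3.12, -1.62 and -1.58. Every day 2 and every day 4 library was above every day 0 library for these genes and for Ms4a7, which went from -2.05 through -1.49 to -1.07. Of all tested genes 0.884% showed this. Ms4a6d stayed at -0.50, -0.36 and -0.42, with overlapping libraries. The day 0 values of Ms4a4a rest on the few fragments given above, and the added 0.1 FPKM lifts them.

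**Figure D4:**
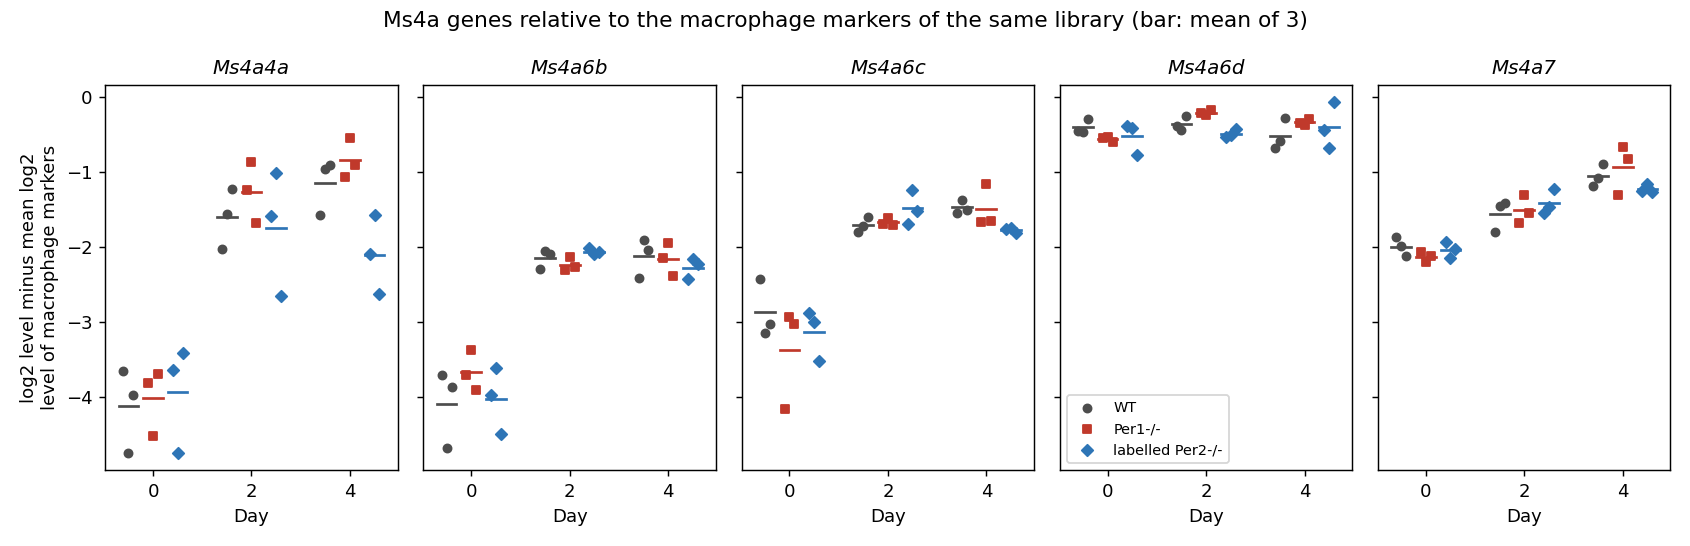
Log2(FPKM + 0.1) of each gene minus the mean log2 level of the 29 macrophage markers in the same library, by day, with 1 point per library and a bar at the mean of 3. Ms4a4a, Ms4a6b, Ms4a6c and Ms4a7 lie higher on days 2 and 4 than on day 0 in every genotype, while Ms4a6d stays between -0.78 and -0.07.

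The makeup of the summed Ms4a level also shifted. Ms4a6d took a mean of 62.4% of the summed FPKM of the 5 genes on day 0, then 38.7% on day 2 and 34.7% on day 4. Every later library was below every day 0 library. The share of Ms4a4a went from 4.13% on day 0 to 17.3% and 18.5%, that of Ms4a6b from 4.45% to 10.8% and 9.93%, and that of Ms4a6c from 8.95% to 15.8% and 15.2%. Ms4a7 kept a similar share, 20.1%, 17.3% and 21.7%. Shares sum to a whole, so a fall of one is a rise of the others.

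The share of Ms4a4a on day 4 was lowest in the Per2-labelled libraries. It took 20.4% ± 2.62 in WT (SD, n = 3), 22.7% ± 1.62 in Per1-/- and 12.5% ± 4.77 in the libraries labelled Per2-/-, whose highest library, at 17.3%, lay just under the lowest WT library, at 17.4%. The share of Ms4a6d was 31.6% ± 2.27 in WT, 32.4% ± 4.26 in Per1-/- and 40.0% ± 7.40 in the Per2-labelled libraries, and these overlapped. Relative to the markers, Ms4a4a had -2.10 ± 0.52 in the Per2-labelled libraries on day 4 and -1.15 ± 0.37 in WT, with the highest Per2-labelled library at -1.58 and the lowest WT library at -1.57. The summed level of the 5 genes on day 4 was 34.4 ± 8.33 FPKM in WT, 71.1 ± 7.52 in Per1-/- and 22.1 ± 4.12 in the Per2-labelled libraries.

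**Figure D5:**
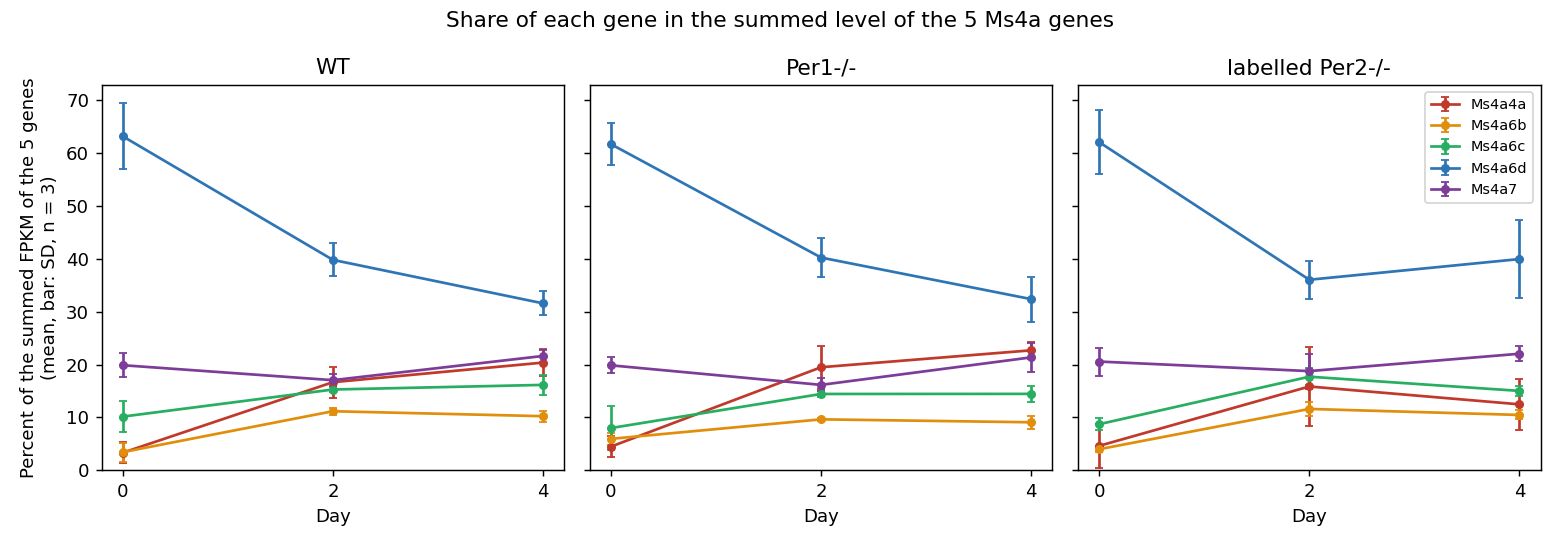
Share of each gene in the summed FPKM of the 5 genes, in percent, by day in each genotype, with the mean and SD of 3 libraries. The Ms4a6d line falls from between 61.7% and 63.2% to between 31.6% and 40.0%, and the Ms4a4a line rises most.

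The genes were also close to each other across the 27 libraries. Pearson r between pairs, on log2(FPKM + 0.1), ran from 0.866 for Ms4a4a and Ms4a6d to 0.973 for Ms4a6b and Ms4a6c, with a median of 0.945. After the mean of each of the 9 groups was subtracted it ran from 0.732 to 0.931. These values describe libraries that share days and genotypes, and macrophage content moves all of the genes.

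Among all tested genes outside the family, the 5 most like the mean of the 5 genes over the 27 libraries were Cd33 (r = 0.985), a sialic acid receptor of myeloid cells, Ptprc (0.985), the leukocyte antigen CD45, Pik3cg (0.984), a PI3 kinase of leukocytes, Fgd2 (0.982), an exchange factor for Cdc42, and Mrc1 (0.981), the mannose receptor. After subtraction of group means the 5 nearest were C1qc (0.973), Adgre1, Tlr13, Nrros and Pik3ap1, and 0 of the 5 names were shared. The nearest gene of Ms4a4a was Aif1 (0.967), which encodes IBA1, and that of Ms4a7 was Cybb (0.987), a subunit of the phagocyte oxidase. Ms4a6b and Ms4a6c both had Cd33 as nearest (0.984 and 0.973). Ms4a6d was most like the complement gene C1qb (0.982), then Mpeg1 (0.981) and C1qc (0.978).

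The other family genes differed in their pattern. Ms4a14, the neighbour of Ms4a7, had r between 0.891 and 0.965 with the 5 genes, and its median was 0.110 FPKM in WT on day 0, 1.09 in WT on day 4 and 2.43 in Per1-/- on day 4. Ms4a4d, which lies between Ms4a6b and Ms4a6d, had r between 0.449 and 0.605. Its WT median went from 0.695 FPKM on day 0 to 2.88 on day 2 and 2.83 on day 4, and its Per1-/- libraries ranged from 2.59 to 7.45 FPKM on day 4, overlapping WT. After group means were subtracted, r of Ms4a4d with the 5 genes was between -0.42 and -0.17.

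Receptors and signalling proteins with which MS4A proteins work, and the transcription factors of myeloid cells, were counted from fixed lists. Of the 16 listed genes for partner receptors and signalling, only Clec7a, which encodes Dectin-1, was under the filter. Its mean was 0.267 FPKM and its highest library had 0.799 FPKM. Of 15 tested genes for partner receptors and signalling, 9 rose in WT between day 0 and day 4, 12 in Per1-/- and 5 in the libraries labelled Per2-/-, and none fell (22.9%, 22.6% and 21.6% of all genes called higher), with list medians of 1.56, 1.86 and 0.94 beside medians of -0.02 to 0.00 for all genes. Tyrobp, the adaptor DAP12 of TREM2, rose by 2.36 in WT (limma adjusted p = 0.000514), and Fcer1g, the common gamma chain of Fc receptors, by 2.01 (adjusted p = 0.00222). Between Per1-/- and WT on day 4, 15 of 15 were positive with a median of 0.83 and none was called. The largest estimates were 2.12 for Fcgr2b, the inhibitory Fc receptor (limma adjusted p = 0.529), and 1.41 for Fcgr3 (adjusted p = 0.72). These lists share genes with the macrophage markers.

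Of 12 tested myeloid transcription factors, 8 rose and 2 fell in WT between day 0 and day 4, 8 rose and 2 fell in Per1-/-, and 5 rose and 3 fell in the libraries labelled Per2-/-. The list medians were 1.35, 1.43 and 0.55, beside -0.02 to 0.00 for all genes, of which 20.9%, 20.4% and 18.8% were called lower and 22.9%, 22.6% and 21.6% higher. Spi1, which encodes PU.1, the leading factor of macrophages, rose by 2.71 in WT (limma adjusted p = 0.000118), and Ikzf1, encoding Ikaros, by 2.11 (adjusted p = 0.000403). Between Per1-/- and WT none was called, and 12 of 12 were positive on day 2 and on day 4. The largest day 4 estimates were 0.88 for Irf8 (limma adjusted p = 0.807), a factor of monocytes and macrophages, and 0.84 for Bhlhe41 (adjusted p = 0.612).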

How the data were processed

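RNA was extracted from 27 cultures, and poly-A libraries were sequenced as read pairs without strand information. Per the study's methods, the authors aligned clean reads to GRCm38 with the Ensembl annotation, and the processing notes name HISAT2 2.0.5 and featureCounts 1.5.0-p3. The deposited table gives FPKM for each gene and library, as made by the authors, and a gene length in bases, which was used as the deposited value of another kind. In each library 100% of FPKM values came back as whole fragments after division by the worth of 1 fragment. Size factors recomputed from these fragments gave the same median change and calls in each comparison without the marker covariate. The deposited values thus already held this scaling, and the agreement is no separate check of it. The rescaling to a common sum was the scaling that differed. The study's own count test was not run, and voom on the recovered fragments was the alternative that uses counts.

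From the FPKM, log2(FPKM + 0.1) was computed for the 14932 of 54532 genes whose mean over the libraries reached 0.5 FPKM. limma 3.58.1 (R 4.3.3) with a mean-variance trend was fitted to all 9 groups, with Benjamini-Hochberg adjustment over all genes tested. Fits at equal markers added the mean log2 level of 29 macrophage markers as a covariate. Promoter windows came from RefSeq (GRCm38.p6), and shared 50-base words from transcripts of the reference annotation of GRCm38.

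The 5 genes, the gene lists and the tests were chosen with earlier results of these data known. The genes named are the 5 members, family genes with 0.1 FPKM or more in any library, the genes with the highest Pearson r, Per1, Per2, Adgre1, Itgam and Csf1r, and from the partner and transcription factor lists those with the largest changes. Other genes, named for their position, overlap, shared sequence or a level near 0, were chosen after their values were seen. P-values of the main fit rest on 1 spread per gene, pooled over the 3 libraries of each of the 9 groups. Ms4a4a thus had an SE of 0.664 between genotypes on days 0, 2 and 4 alike, with its scattered day 0 libraries included. Such p-values do not measure the spread of the 2 compared groups alone. Libraries with the same number deviated together, with r above 0.1 in every pair, for WT days 2 and 4, Per1-/- days 0 and 2, and Per1-/- days 2 and 4. Data were also simulated for Per1-/- against WT on day 4, with 14932 genes. The fit recovered 145 of 200 genes changed by a log2 fold of 1 and 189 of 200 changed by 2, with 5 and 8 false calls. Simulated counts were drawn separately for each gene, with the median spread of the 9 groups and no shared shift in macrophage content. The 5 genes move together and had SE from 0.435 to 0.664 in this comparison, so these recovery rates do not carry over to them. Alternatives were other pseudocounts, filters, scalings, blocks, fits and covariates, and leaving out each library.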

Additional observations from a re-analysis of the deposited data

How the results depend on the processing

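Counts below are of the 5 genes called. Per1-/- against the libraries labelled Per2-/- on day 2 went from 0 to 1 with a pseudocount of 1 and to 1 with the replicate block, and on day 4 from 0 to 4 with a pseudocount of 1, 4 with only the groups compared and 5 with voom. WT day 4 against day 2 went from 0 to 3 with a pseudocount of 1, 3 with only the groups compared, 1 with voom and 1 with the replicate block within genotype. The same comparison in Per1-/- went from 0 to 3, 3, 4 and 1 under these settings. The equal-marker count in WT went from 4 to 2 with Adgre1, Itgam and Csf1r as covariate, and the nearest genes shared 0 of 5 names after group means were subtracted. The cause of these shifts was not tested. Leaving out 1 library gave 1 to 3 for the Per2-labelled day 2 against day 0, where day 0 replicate 2 gave the 1, 3 to 4 for WT and 4 to 5 for Per1-/- on those days, and 4 to 5 for the Per2-labelled day 4 against day 0.

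Signs turned for values near 0. With the marker covariate, Ms4a6c had -0.0708 and -0.13 for Per1-/- against WT on days 2 and 4 and -0.35 against the Per2-labelled libraries on day 2, where Ms4a7 had -0.11, and Ms4a6d had -0.10 for WT day 4 against day 0. Ms4a6d in the Per2-labelled libraries, day 2 against day 0, had -0.000224 with a pseudocount of 1, and -0.52 to 0.43 when 1 library was left out, where Ms4a7 ran from -0.0418 to 1.00. At equal markers Ms4a6d had 0.0534 in WT with the replicate block, -0.0203 in Per1-/- and -0.23 in the Per2-labelled libraries with the shorter covariate, where leaving out 1 library gave -0.0379 to 0.287. Same-numbered libraries of different genotypes had r over 0.1 in 3 of 27 pairs. Those of different days of a genotype had it in 14 of 27, with a median r of 0.127 and a lowest of -0.0172. Differently numbered libraries across days had it in 0 of 54. The number thus pairs the days of a genotype, to a varying degree, and the main fit holds no block for it. Apart from the counts named here, either block changed 1 call among the 5 genes, that of Ms4a6d in the Per2-labelled libraries between days 0 and 4 (adjusted p = 0.0157 and 0.0158). The differences between Per1-/- and WT at equal markers moved with the pseudocount, for Ms4a4a on day 4 from -0.54 with 0.01 to 0.73 with 1. On day 0 that between Per1-/- and WT turned sign for 4 genes when 1 library was left out. Depth limits Ms4a4a on day 0, at 0 to 16 fragments a library.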

Other observations

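Ms4a2, the mast cell member of the family, stayed under the filter but had fragments in all 27 libraries. Its WT libraries had 0.172, 0.710 and 0.780 FPKM on day 0 and 0.0319, 0.114 and 0.238 on day 4, and its Per1-/- libraries had 0.129, 0.415 and 0.939 and then 0.0436, 0.0780 and 0.138. The medians were lower on day 4, unlike those of the 5 genes, and the ranges overlapped in both genotypes. The summed level of the 6 mast cell markers, a list that does not hold Ms4a2, was at most 0.0885 FPKM in WT on day 0 and at least 0.303 on day 4.

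Ms4a4c, Ms4a10 and Ms4a8a were the other genes of the family with a library at 0.1 FPKM or more, with highest values of 0.527, 0.305 and 0.162 FPKM.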
